A study of Rattus norvegicus with 8 samples.

Results

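The gene group described here is the PGC-1, ERR and PPAR regulators of mitochondrial and lipid metabolism in the heart of the old female rat. It holds 10 genes, Ppargc1a, Ppargc1b, Esrra, Esrrb, Esrrg, Ppara, Ppard, Nrf1, Tfam and Gabpa, and its members were all probe sets annotated to exactly 1 of these symbols. That gave 16 of the 31099 probe sets on the array, 3 each for Ppargc1a and Nrf1, 2 each for Esrrg and Ppard, and 1 for each of the other 6 genes. After a filter on dim probe sets, 12 of the 16 were tested, and these stood for 9 of the 10 genes. The 4 left out were 1 probe set each of Ppargc1a, Ppard and Nrf1, and the only one of Ppara.

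All rats were female, of the Norway Brown strain and 18 to 22 months old, and RNA came from whole heart. In the late estradiol group, ovariectomized rats received a pellet of 0.5 mg 17-β estradiol under the skin 9 weeks after surgery. The early estradiol group received the same pellet, which releases hormone over 90 days, at the time of ovariectomy. The ovariectomy group had the surgery and no hormone, and the sham group kept its ovaries. When hearts were taken relative to surgery is not stated in the labels. Each group had 2 Affymetrix arrays, and each array held RNA pooled from 3 hearts, so a p-value measures the spread between pools, part of which may be technical.

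Peroxisome proliferator-activated receptor gamma coactivator 1 alpha and beta (PGC-1α and PGC-1β, from Ppargc1a and Ppargc1b) bind no DNA themselves. They dock on transcription factors and bring in the machinery that turns genes on. The estrogen-related receptors ERRα, ERRβ and ERRγ (Esrra, Esrrb and Esrrg) resemble the estrogen receptors in sequence but do not bind estradiol, and in heart muscle they drive genes of the TCA cycle and of respiration. PPARα and PPARδ (Ppara and Ppard) are fatty acid sensors that pair with retinoid X receptors and turn on genes of fatty acid oxidation. Nuclear respiratory factor 1 (Nrf1) and the α subunit of GA-binding protein (Gabpa) control nuclear genes of the mitochondrion, among them Tfam, whose protein packages mitochondrial DNA and starts its transcription.

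Promoter windows of the group were searched for motifs of factors linked to it. In the RefSeq table of assembly GRCr8, 9 of the 10 genes, all but Ppard, matched a promoter window of 300 bases, from 250 bases before the gene start to 50 after it, and with 4 windows for Esrrg there were 12. Both strands of each were searched for 5 motifs. TGACGTCA is the cyclic AMP response element bound by CREB, CCGGAAGT is bound by GA-binding protein and TCAAGGTCA by the estrogen-related receptors. The nuclear respiratory factor 1 motif is seen in capitals in the Ppara window, with any base allowed at its sixth place, and PPAR with its partner binds the DR1 motif, a repeat of AGGTCA after 1 spacer base. These 3 windows are shown because each holds 1 match to the full motif of a factor that acts within or upstream of the group. Each is written 5′ to 3′ on the strand of the gene, with the match in capitals.
Ppargc1a, chr14:63634058-63634357, plus strand: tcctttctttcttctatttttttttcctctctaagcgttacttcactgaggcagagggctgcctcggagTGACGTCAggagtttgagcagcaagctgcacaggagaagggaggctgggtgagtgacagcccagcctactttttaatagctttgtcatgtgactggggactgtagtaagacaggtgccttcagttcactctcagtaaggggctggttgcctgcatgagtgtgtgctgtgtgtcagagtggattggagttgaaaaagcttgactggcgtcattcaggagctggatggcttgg
Tfam, chr20:17355123-17355422, plus strand: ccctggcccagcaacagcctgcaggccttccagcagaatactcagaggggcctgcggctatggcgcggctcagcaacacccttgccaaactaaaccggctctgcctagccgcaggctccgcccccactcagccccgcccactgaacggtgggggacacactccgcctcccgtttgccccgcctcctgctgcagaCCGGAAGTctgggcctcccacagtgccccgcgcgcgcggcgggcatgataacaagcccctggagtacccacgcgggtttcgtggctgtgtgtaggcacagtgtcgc
Ppara, chr7:118712357-118712656, plus strand: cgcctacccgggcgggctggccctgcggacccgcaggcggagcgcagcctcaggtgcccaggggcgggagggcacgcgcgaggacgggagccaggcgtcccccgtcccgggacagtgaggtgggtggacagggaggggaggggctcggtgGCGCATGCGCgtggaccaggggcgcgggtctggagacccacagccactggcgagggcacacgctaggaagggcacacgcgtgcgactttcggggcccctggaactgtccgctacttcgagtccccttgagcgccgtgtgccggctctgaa

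The cyclic AMP response element begins 181 bases before the Ppargc1a start, and 1.83% of all 33469 windows in the table hold one. In the Tfam window the GA-binding protein motif begins 56 bases before the start, and 3.81% of windows hold it. The nuclear respiratory factor 1 motif begins 100 bases before the Ppara start, and 4.25% of windows hold it. None of the 12 windows held the estrogen-related receptor or PPAR motif in full, which 0.433% and 0.0538% of all windows did. The matches do not overlap each other, and each is a description of these letters, not of binding.

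Cardiomyocyte markers gave bright signals. All 8 cardiomyocyte markers on the list used (Myh6, Myh7, Tnnt2, Tnni3, Actn2, Ryr2, Myl2 and Nppa) passed the filter, with mean log2 signals of 10.82 to 13.06. Of 5 adipocyte markers with a probe set, 4 (Adipoq, Plin1, Cidec and Lep) lay below the filter and Fabp4 above it. On the skeletal muscle list, Myh1 (11.98), Acta1 (11.60) and Ckm (11.95) were as bright as cardiomyocyte markers. Myh2 was at 3.71, and Myh4 and Tnnt3 lay below the filter. Whether Myh1, Acta1 and Ckm were read from skeletal muscle or from cardiomyocytes was not tested. Values of this list are therefore not a measure of skeletal muscle in the hearts. In whole heart, fewer cells of a type and less RNA per cell cannot be told apart. The arrays differed in brightness by replicate number, with a trimmed mean signal of 28.07 to 69.78 on replicate 1 arrays and 103.8 to 137 on replicate 2 arrays, and quantile normalization brought them to a common scale. Late estradiol replicate 1 was the dimmest, and the 3′ to 5′ ratio of its Gapdh probe sets, which rises as RNA breaks down, was 2.7. The other 7 arrays gave 1.26 to 1.65. The same ratio for actin did not set that array apart, at 3.01, with 3.06 on ovariectomy replicate 2 and 1.71 to 2.75 on the other 6. No gene on the list of another cell type passed the test in any comparison. All 5 fibroblast markers were above the filter, and their summed signal was 2313 and 2949 with late estradiol, 3348 to 3957 with early estradiol, 3578 and 3708 after ovariectomy, and 3044 and 3241 after sham surgery. With late estradiol against ovariectomy 0 of the 5 were above 0, at a median difference of -1.19, and with late estradiol against sham 1 of 5 was, at -0.33. The 5 macrophage markers summed to 262 and 465 with late estradiol, 495 to 619 with early estradiol, 358 and 714 after ovariectomy, and 381 and 450 after sham surgery. Their median difference was -0.53 for late estradiol against ovariectomy (2 of 5 above 0) and -0.57 against early estradiol (0 of 5). The 4 endothelial markers measured summed to 2448 on late estradiol replicate 1 and 1589 on late estradiol replicate 2. They summed to 1774 and 1900 with early estradiol, 1454 and 1481 after ovariectomy, and 1565 and 1662 after sham surgery. Their median difference was 0.44 for late estradiol against ovariectomy (3 of 4 above 0). In that comparison the 4 genes measured on the skeletal muscle list had -0.45 (1 of 4) and the 3 of smooth muscle 0.01 (2 of 3). Late against early estradiol gave -0.56 for smooth muscle (1 of 3) and 0.03 for the skeletal muscle list (2 of 4). The part of RNA quality or of these cell types in the values of the late estradiol group below was not tested.

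No probe set of the regulators had an adjusted p under 0.05 (limma, Benjamini-Hochberg over 18625 probe sets), and the share called among all 18625 was 0% in each of the 7 comparisons and in the F test over the 4 groups. At an unadjusted p under 0.05, 1 of the 12 probe sets stood out for late estradiol against ovariectomy (Ppargc1a 1393743_at, higher), where 4.36% of all probe sets did. For ovariectomy against sham there was 1 (Esrrg 1381445_at, higher), against 1.47% of all. For late estradiol against sham there was 1 (Esrrb, lower), against 3.37% of all. There were 0 for early estradiol against ovariectomy (1.71% of all), late against early estradiol (3.87%), early estradiol against sham (0.773%) and the estradiol groups averaged against ovariectomy (2.68%). The F test also gave 0, against 1.86% of all.

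Arrays of a pair of groups did not overlap for 4 of 12 probe sets with late estradiol against ovariectomy, where 29.1% of all probe sets did not, and for 3 of 12 with early estradiol against ovariectomy, against 27.0%. The count was 3 for ovariectomy against sham (25.1% of all), 3 for late against early estradiol (31.8%), 3 for late estradiol against sham (30.6%) and 4 for early estradiol against sham (24.7%). It was 2 for the averaged estradiol groups against ovariectomy, where 10.4% of all did not overlap. These counts lie near the shares of the whole array. The median difference of the 12 ran from -0.18 for late against early estradiol to -0.02 for early estradiol against ovariectomy, and that of all probe sets from -0.03 to 0.02 over the 7 comparisons. The values of each gene follow as log2 signals, replicate 1 before replicate 2, with differences as the log2 difference of group means ± limma's standard error and its 95% interval.

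**Figure D1:**
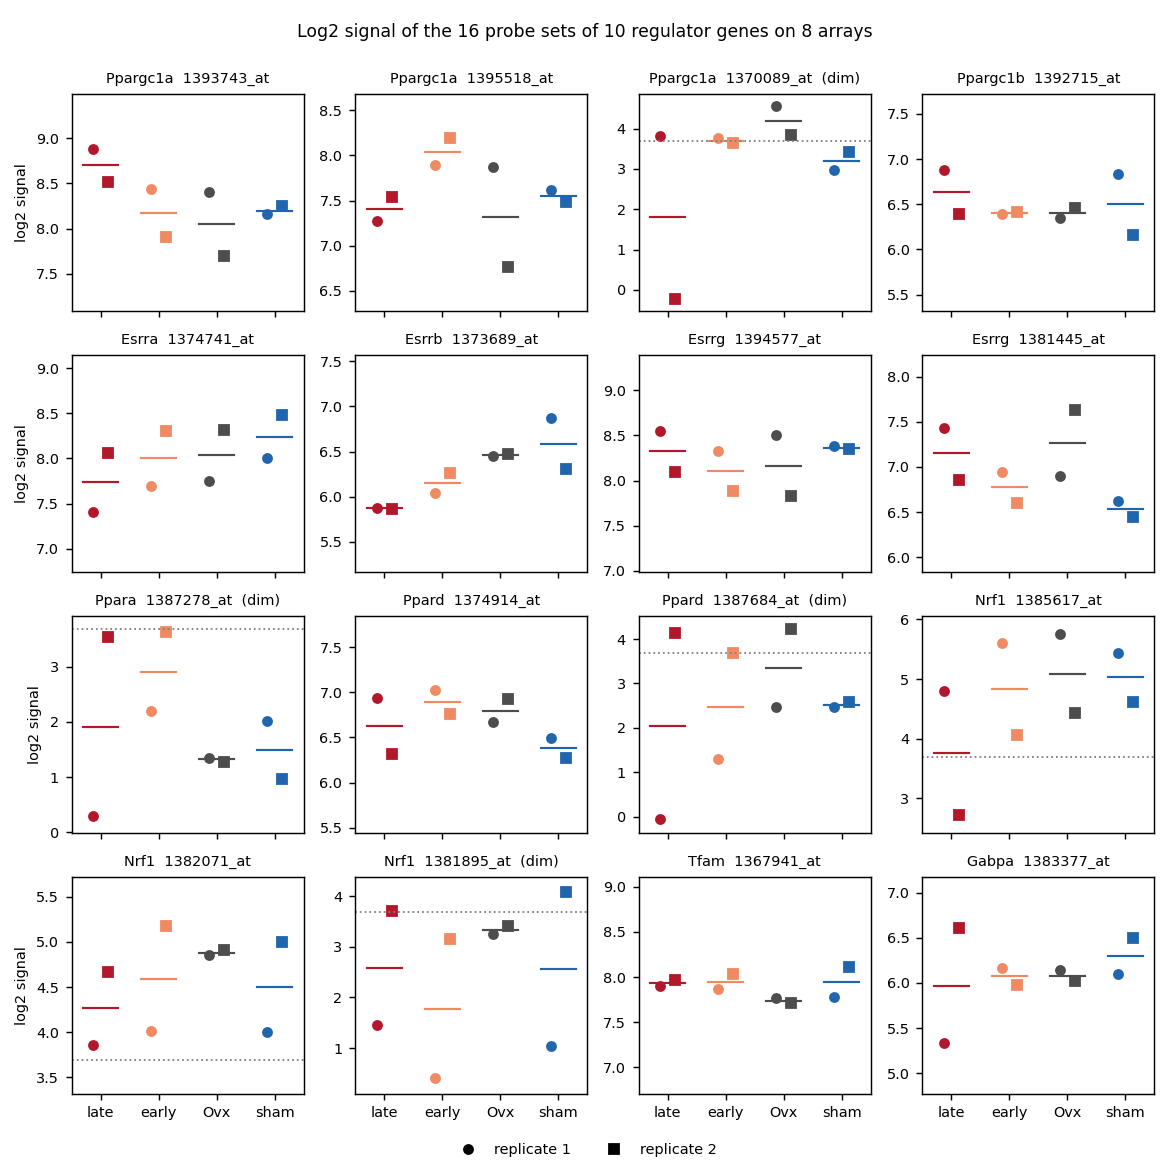
Log2 signal after quantile normalization (vertical axis) of the 16 probe sets in the late estradiol, early estradiol, ovariectomy (Ovx) and sham groups. Each point is 1 array of pooled RNA, circles replicate 1 and squares replicate 2, the short line is the group mean, the dotted line marks the filter at 3.69, and "(dim)" marks the 4 probe sets below it. The 2 late estradiol arrays of Esrrb, at 5.88 and 5.87, lie below the 6 other arrays, and those of Ppargc1a 1393743_at, at 8.88 and 8.52, lie above them.

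Ppargc1a, the coactivator that cold, exercise and fasting induce, was read by 3 probe sets, and the bright ones did not give the same answer. On the brightest, 1393743_at, the signal was 8.88 and 8.52 with late estradiol, 8.44 and 7.91 with early estradiol, 8.40 and 7.70 after ovariectomy, and 8.16 and 8.25 after sham surgery. Both late estradiol arrays were above all 6 others, while the other 3 groups overlapped. Late estradiol exceeded ovariectomy by 0.66 ± 0.28 (interval 0.03 to 1.28), or 1.57-fold, which did not pass (limma adjusted p = 0.943). The difference was 0.48 between the replicate 1 arrays and 0.83 between the replicate 2 arrays. Leaving out ovariectomy replicate 2 gave 0.30 and leaving out ovariectomy replicate 1 gave 1.01. Without normalization it was 0.26, where the median of all probe sets was -0.31. Early estradiol differed from ovariectomy by 0.13 ± 0.28 and ovariectomy from sham by -0.16 ± 0.28.

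The second Ppargc1a probe set, 1395518_at, had its highest values in another group. Its signal was 7.27 and 7.54 with late estradiol, 7.89 and 8.19 with early estradiol, 7.87 and 6.77 after ovariectomy, and 7.62 and 7.48 after sham surgery. Here both early estradiol arrays were above all 6 others, one of them by 0.02, and the ovariectomy arrays were the farthest apart of any group. Early estradiol exceeded ovariectomy by 0.72 ± 0.33 (interval -0.02 to 1.46), 1.65-fold, which did not pass (limma adjusted p = 1). Nearly all of it came from the replicate 2 arrays, with a difference of 1.42 there and 0.02 between the replicate 1 arrays, and the difference was 0.17 without ovariectomy replicate 2 and 1.27 without ovariectomy replicate 1. Late estradiol differed from ovariectomy by 0.09 ± 0.33 and ovariectomy from sham by -0.23 ± 0.33.

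Between the estradiol groups the 2 bright Ppargc1a probe sets pointed in opposite directions. Late minus early estradiol was 0.53 ± 0.28 on 1393743_at, with every late array above every early one, and -0.63 ± 0.33 on 1395518_at, with every late array below. Neither passed (limma adjusted p = 0.987 for each). The gap of 1.16 between them was at or above that of 87.1% of the 2029 genes with 2 kept probe sets, whose median gap was 0.46 and whose probe sets had the same sign in 54.6%. Over the 7 comparisons the pair had the same sign in 4. On 1393743_at the difference was 0.26 without early estradiol replicate 2 and 0.80 without early estradiol replicate 1. Without normalization it was -0.10, where the median of all probe sets was -0.47.

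The third Ppargc1a probe set, 1370089_at, is the one the annotation ties to the gene's RefSeq mRNA, and it was dim. Its signal was 3.83 and -0.22 with late estradiol, 3.76 and 3.64 with early estradiol, 4.56 and 3.84 after ovariectomy, and 2.98 and 3.42 after sham surgery. Late estradiol replicate 2 was the lowest of the 8, and the filter kept this probe set out of the test. In the fit without the filter, late estradiol minus ovariectomy was -2.39 ± 1.25 (limma adjusted p = 1), opposite in sign to both bright probe sets. Most of it came from late estradiol replicate 2, at -0.22, as replicate 1, at 3.83, lay next to ovariectomy replicate 2, at 3.84. No level can be set between the groups on this probe set.

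Ppargc1b, the close relative of Ppargc1a that is also abundant in heart and brown fat, differed little between groups. Its signal was 6.88 and 6.39 with late estradiol, 6.39 and 6.41 with early estradiol, 6.35 and 6.46 after ovariectomy, and 6.84 and 6.16 after sham surgery. Every pair of groups overlapped. The pairwise differences ran from -0.11 to 0.24 with a standard error of 0.32, and the interval for late estradiol against ovariectomy was -0.48 to 0.94.

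Esrrb, the estrogen-related receptor best known from the placenta and from mouse embryonic stem cells, was lowest with late estradiol. Its signal was 5.88 and 5.87 with late estradiol, 6.04 and 6.26 with early estradiol, 6.45 and 6.47 after ovariectomy, and 6.87 and 6.31 after sham surgery. The late arrays lay below the early arrays, and the early arrays below those of ovariectomy and sham, which overlapped. Late estradiol differed from sham by -0.71 ± 0.30 (interval -1.38 to -0.04), 0.61 times the sham level, and from ovariectomy by -0.59 ± 0.30 (interval -1.26 to 0.08), and neither passed (limma adjusted p = 0.997 and 0.943). With 1 array left out, the difference from ovariectomy stayed between -0.60 and -0.58. The other settings that can move it gave from -0.88 without normalization, where the median of all probe sets was -0.31, to -0.41 with 32 added before the log. The difference from sham was less steady, at -0.99 without sham replicate 2 and -0.44 without sham replicate 1. Early estradiol differed from ovariectomy by -0.31 ± 0.30.

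Esrra, the estrogen-related receptor that works most closely with PGC-1α on respiratory genes and on its own promoter, followed replicate number more than group. Its signal was 7.41 and 8.06 with late estradiol, 7.70 and 8.30 with early estradiol, 7.75 and 8.32 after ovariectomy, and 8.01 and 8.48 after sham surgery. Replicate 2 was higher in 4 of 4 groups, by a mean of 0.57, and all groups overlapped. Among arrays of the same replicate number, late estradiol was lowest and sham highest both times. Late estradiol minus sham was -0.51 ± 0.32 (interval -1.22 to 0.21), with -0.18 if late estradiol replicate 1 was left out and -0.83 if late estradiol replicate 2 was. The fit with the replicate block gave -0.51 ± 0.19, which did not pass either (limma adjusted p = 0.688).

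Esrrg, the estrogen-related receptor of highly oxidative tissue, was read by 2 probe sets above the filter. On 1394577_at the signal was 8.55 and 8.10 with late estradiol, 8.33 and 7.88 with early estradiol, 8.50 and 7.83 after ovariectomy, and 8.38 and 8.35 after sham surgery. Late estradiol, ovariectomy and sham overlapped, and both early arrays lay below the sham arrays, with a difference of -0.26 ± 0.28. It was -0.05 between the replicate 1 arrays and -0.46 between the replicate 2 arrays. On 1381445_at the signal was 7.43 and 6.86 with late estradiol, 6.95 and 6.60 with early estradiol, 6.90 and 7.63 after ovariectomy, and 6.62 and 6.45 after sham surgery. Both ovariectomy arrays and both late estradiol arrays were above both sham arrays.

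On 1381445_at, ovariectomy exceeded sham by 0.73 ± 0.32 (interval 0.02 to 1.45), 1.66-fold, which did not pass (limma adjusted p = 1). The difference was 0.29 between the replicate 1 arrays and 1.18 between the replicate 2 arrays, with 0.37 if ovariectomy replicate 2 was left out and 1.10 if ovariectomy replicate 1 was. On 1394577_at the same comparison gave -0.20 ± 0.28. Over the 7 comparisons the 2 Esrrg probe sets had the same sign in 2, and they lay on the same side of their own means on 4 of 8 arrays.

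Ppara, the fatty acid receptor that dominates lipid use in heart muscle, had only a dim probe set, 1387278_at. Its signal was 0.29 and 3.54 with late estradiol, 2.19 and 3.62 with early estradiol, 1.35 and 1.28 after ovariectomy, and 2.02 and 0.96 after sham surgery. Every one of these values lay under the filter at 3.69, and the replicate arrays of late estradiol differed by 3.25. In the fit without the filter, early estradiol minus ovariectomy was 1.59 ± 1.30 (limma adjusted p = 1). No level of Ppara can be set between the groups at this signal.

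Ppard, the more widely expressed PPAR, was read above the filter by 1374914_at. Its signal was 6.94 and 6.32 with late estradiol, 7.02 and 6.76 with early estradiol, 6.67 and 6.92 after ovariectomy, and 6.49 and 6.27 after sham surgery. The early estradiol and ovariectomy arrays all lay above the sham arrays, and late estradiol overlapped with each of the other groups. Early estradiol minus sham was 0.51 ± 0.30 (interval -0.16 to 1.17) and ovariectomy minus sham 0.41 ± 0.30 (interval -0.25 to 1.07), and neither passed (limma adjusted p = 1 for each). The dim probe set 1387684_at read -0.06 and 4.14 with late estradiol, 1.29 and 3.68 with early estradiol, 2.47 and 4.22 after ovariectomy, and 2.47 and 2.58 after sham surgery. Replicates of this probe set differed by 4.20 with late estradiol and by 0.11 after sham surgery.

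Nrf1, the nuclear respiratory factor, was read by 2 probe sets above the filter that shifted in opposite directions between replicate numbers. On 1385617_at the signal was 4.80 and 2.72 with late estradiol, 5.60 and 4.06 with early estradiol, 5.76 and 4.43 after ovariectomy, and 5.44 and 4.62 after sham surgery. Replicate 2 was lower in 4 of 4 groups, by a mean of 1.44 on the log2 scale. On 1382071_at the signal was 3.86 and 4.67 with late estradiol, 4.01 and 5.18 with early estradiol, 4.86 and 4.91 after ovariectomy, and 4.0 and 5.0 after sham surgery, with replicate 2 higher in 4 of 4 groups by a mean of 0.76.

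Late estradiol minus ovariectomy was -1.33 ± 0.82 on the first Nrf1 probe set (interval -3.17 to 0.50) and -0.62 ± 0.63 on the second (interval -2.02 to 0.78). Both were below 0 in both replicates and neither passed (limma adjusted p = 0.943 and 0.952). The first was -2.37 without late estradiol replicate 1 and -0.30 without late estradiol replicate 2. For the second, the same omissions gave -0.22 and -1.02. With 32 added before the log, which damps dim signals, they were -0.51 and -0.26. The residual SD of the first, 1.07, was larger than that of most probe sets, at percentile 91.7. The dim probe set 1381895_at read 1.45 and 3.70 with late estradiol, 0.40 and 3.15 with early estradiol, 3.26 and 3.41 after ovariectomy, and 1.04 and 4.08 after sham surgery.

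Gabpa, the DNA-binding subunit of GA-binding protein, gave 5.34 and 6.61 with late estradiol, 6.17 and 5.98 with early estradiol, 6.14 and 6.02 after ovariectomy, and 6.10 and 6.50 after sham surgery. The late estradiol arrays were the lowest and the highest of the 8, and every pair of groups overlapped. Late estradiol minus ovariectomy was -0.11 ± 0.41 (interval -1.03 to 0.82), with -0.80 between the replicate 1 arrays and 0.59 between the replicate 2 arrays.

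Tfam, whose promoter above carries the GA-binding protein motif, had a small spread between replicates. Its signal was 7.90 and 7.97 with late estradiol, 7.87 and 8.03 with early estradiol, 7.77 and 7.71 after ovariectomy, and 7.78 and 8.11 after sham surgery. Its residual SD of 0.13 was at percentile 5.7 of all probe sets tested. The ovariectomy arrays were below all 6 others, by a margin of 0.01 from the nearest sham array. Late estradiol minus ovariectomy was 0.20 ± 0.21 (interval -0.27 to 0.67), early estradiol minus ovariectomy 0.21 ± 0.21 (interval -0.26 to 0.68), and ovariectomy minus sham -0.21 ± 0.21 (interval -0.67 to 0.26). None passed (limma adjusted p = 0.954, 1 and 1), and without normalization the first was -0.18, where the median of all probe sets was -0.31. Single arrays moved the others: early estradiol minus ovariectomy was 0.13 without early estradiol replicate 2 and 0.29 without early estradiol replicate 1. Ovariectomy minus sham was -0.37 without sham replicate 1 and -0.04 without sham replicate 2.

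**Figure D2:**
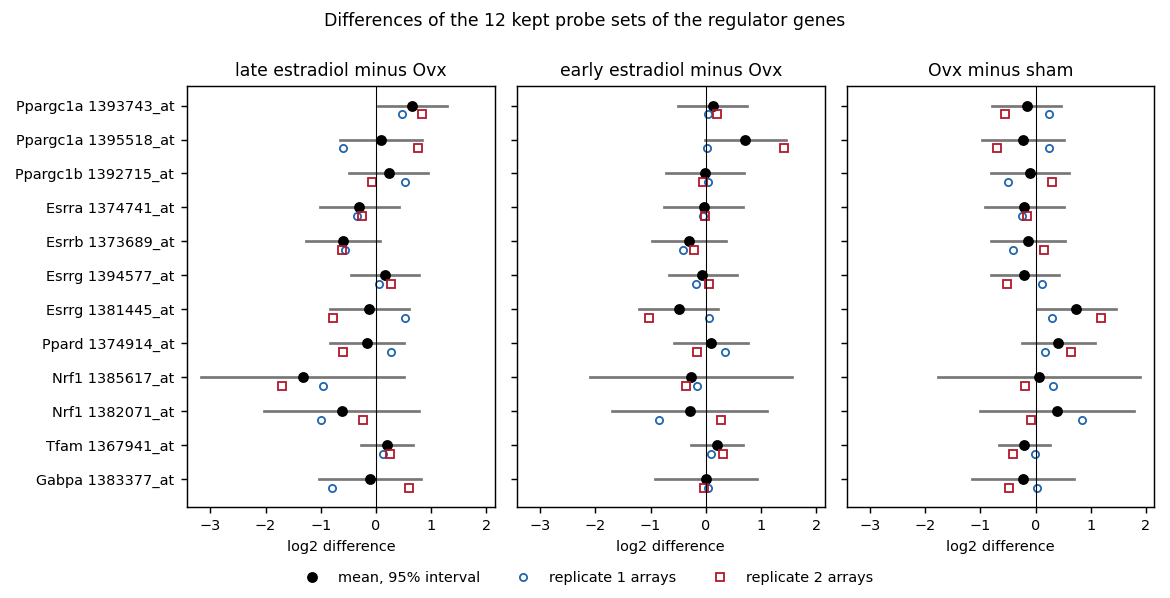
Log2 differences of group means (horizontal axis) of the 12 probe sets above the filter, for late estradiol minus ovariectomy (Ovx), early estradiol minus ovariectomy, and ovariectomy minus sham. Black points are the means with 95% intervals from limma, open circles the differences between replicate 1 arrays and open squares those between replicate 2 arrays. The intervals of Ppargc1a 1393743_at (0.03 to 1.28, late estradiol) and Esrrg 1381445_at (0.02 to 1.45, ovariectomy) lie just clear of 0, and none of the differences passed after adjustment.

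Likeness to the brightest Ppargc1a probe set was described over the 8 arrays, after the mean of the 4 arrays of the same replicate number was subtracted. Of 10449 genes, the 3 with the highest Pearson r were Hnrnpa3, an RNA-binding protein of splicing complexes (0.978), Lias, the mitochondrial enzyme that makes lipoic acid (0.97), and Mtmr3, a phosphatase of membrane lipids (0.968). Lias read 8.61 and 8.52 with late estradiol, 8.56 and 8.38 with early estradiol, 8.50 and 8.29 after ovariectomy, and 8.43 and 8.45 after sham surgery. Over so few arrays the highest of many r values is a description only. By the same measure Esrrg ranked 785 (r = 0.691), Tfam 1082 (0.627), Gabpa 4959 (0.0196) and Ppargc1b 5099 (-0.00191). Ppard ranked 7090 (-0.304), Nrf1 9554 (-0.68), Esrra 9728 (-0.709) and Esrrb 10178 (-0.822).

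Partners of PGC-1, target genes of PPAR and ERR, and genes of mitochondrial DNA upkeep were described from 4 lists. Each gene was read by its brightest probe set above the filter. None of their genes passed in any comparison in either direction (limma, Benjamini-Hochberg over all probe sets). The list of PGC-1 partners and upstream regulators, which holds kinases, deacetylases, acetyltransferases, retinoid X receptors and MEF2 factors, had 31 of 42 genes tested. With late estradiol against ovariectomy 14 were above 0 and 17 below, at a median of -0.02, beside 0.00 over all 10450 genes. With early estradiol against ovariectomy 16 were above 0 and 15 below (median 0.02, beside 0.01), and after ovariectomy against sham 15 and 16 (median -0.01, beside -0.02). For late estradiol against sham the counts were 17 and 14 (median 0.11, beside -0.02). That median was 0.25 between the replicate 1 arrays, where the late array is the dimmest, and 0.01 between the replicate 2 arrays. With probe sets averaged per gene it was 0.03.

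Within that list, the genes of smallest p over the 4 groups were Kat2a, Perm1 and Carm1. Kat2a, the acetyltransferase GCN5 that restrains PGC-1α, read 2.95 and 3.93 with late estradiol, 4.74 and 4.67 with early estradiol, 5.44 and 4.74 after ovariectomy, and 5.20 and 4.82 after sham surgery. Both late arrays were below the 6 others, one of them below 3.69, and late estradiol minus ovariectomy was -1.65 ± 0.57 (limma adjusted p = 0.943). Perm1, a muscle regulator that PGC-1α and ERR induce, read 9.87 and 9.44 with late estradiol, 9.21 and 8.46 with early estradiol, 9.19 and 9.76 after ovariectomy, and 9.20 and 9.12 after sham surgery. Late minus early estradiol was 0.81 ± 0.28 for Perm1 (limma adjusted p = 0.987), and the late arrays lay above the early ones. Carm1, an arginine methyltransferase that acts on PGC-1α, read 5.48 and 6.43 with late estradiol, 6.66 and 6.70 with early estradiol, 7.03 and 7.03 after ovariectomy, and 6.93 and 5.70 after sham surgery. Late estradiol minus ovariectomy was -1.07 ± 0.43 for Carm1 (limma adjusted p = 0.943), and the late and sham arrays overlapped.

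The PPAR target genes of lipid use had 29 of 35 genes tested. With late estradiol against ovariectomy 9 were above 0 and 20 below (median -0.08, beside 0.00 over all genes). That median was -0.22 between the replicate 1 arrays and 0.01 between the replicate 2 arrays. With early estradiol against ovariectomy the counts were 13 and 16 (median -0.01, beside 0.01), and after ovariectomy against sham 6 and 23 (median -0.09, beside -0.02). Late estradiol against sham had 5 above 0 and 24 below, at a median of -0.20, beside -0.02, and the median was -0.42 between the replicate 1 arrays, where the late array is the dimmest, and -0.04 between the replicate 2 arrays. The genes of smallest p over the 4 groups were Cpt2, the inner carnitine palmitoyltransferase, Vnn1, a pantetheinase, and Acadm, the medium-chain acyl-CoA dehydrogenase. Cpt2 read 8.79 and 9.00 with late estradiol, 9.51 and 9.21 with early estradiol, 9.43 and 9.36 after ovariectomy, and 9.83 and 9.11 after sham surgery, so the late arrays lay below all others.

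Late estradiol minus sham was -0.57 ± 0.24 for Cpt2 and -0.37 ± 0.15 for Acadm (limma adjusted p = 0.997 for each). Vnn1 read 9.08 and 8.69 with late estradiol, 8.64 and 8.12 with early estradiol, 9.01 and 8.77 after ovariectomy, and 8.78 and 8.83 after sham surgery. Early estradiol was lowest, at -0.51 ± 0.23 against ovariectomy (limma adjusted p = 1). After ovariectomy against sham, Acsl1, which activates long-chain fatty acids, differed by -0.24 ± 0.14, Pdk4, the kinase that closes pyruvate dehydrogenase, by -0.97 ± 0.56, and Ehhadh, an enzyme of peroxisomal oxidation, by -0.93 ± 0.57 (limma adjusted p = 1 for each).

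The ERR target genes of the TCA cycle and respiration had 31 of 35 genes tested. Their medians were -0.05 with late estradiol against ovariectomy (10 above 0, 21 below), -0.01 with early estradiol against ovariectomy (14 and 17) and -0.05 after ovariectomy against sham (9 and 22), beside 0.00, 0.01 and -0.02 over all genes. For late estradiol against sham the median was -0.11 (6 above 0, 25 below), beside -0.02. The genes of smallest p over the 4 groups were Idh3a, the catalytic subunit of isocitrate dehydrogenase, Ogdh, of the oxoglutarate dehydrogenase complex, and Cox5a, of cytochrome oxidase. Idh3a read 9.20 and 9.46 with late estradiol, 9.92 and 9.78 with early estradiol, 9.86 and 9.98 after ovariectomy, and 10.03 and 9.61 after sham surgery. Ogdh read 10.86 and 11.09 with late estradiol, 11.42 and 11.54 with early estradiol, 11.25 and 11.34 after ovariectomy, and 11.39 and 11.18 after sham surgery.

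For both Idh3a and Ogdh the late arrays were below all 6 others. Late estradiol minus ovariectomy was -0.59 ± 0.19 for Idh3a and -0.32 ± 0.15 for Ogdh (limma adjusted p = 0.943 for each), and late minus early estradiol was -0.51 ± 0.15 for Ogdh (limma adjusted p = 0.987). Cox5a went the other way, at 7.64 and 7.03 with late estradiol, 6.81 and 5.50 with early estradiol, 6.86 and 6.77 after ovariectomy, and 6.33 and 6.37 after sham surgery. Late minus early estradiol was 1.18 ± 0.41 for Cox5a (limma adjusted p = 0.987). Only 1 probe set of Cox5a was above the filter, and it was dimmer than Cox4i1 on the same list (12.48 and 12.46 with late estradiol). How well it reads the Cox5a mRNA was not tested. Late against early estradiol had 4 of the 31 genes at an unadjusted p under 0.05, 2 in each direction, which is 12.9% of the list beside 3.3% of all genes. That was the highest share of any list in any comparison. For late estradiol the share of the ERR list was 3.23% against ovariectomy (3.99% of all genes) and 6.45% against sham (2.82%). It was 0% in the remaining comparisons.

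The genes of mitochondrial DNA transcription and upkeep, where Tfam acts, had 16 of 18 tested. Their medians were -0.10 with late estradiol against ovariectomy (5 above 0, 11 below), 0.04 with early estradiol against ovariectomy (10 and 6) and -0.11 after ovariectomy against sham (5 and 11), beside 0.00, 0.01 and -0.02 over all genes. The median for late estradiol against ovariectomy was -0.33 between the replicate 1 arrays and 0.11 between the replicate 2 arrays. For late estradiol against sham the median was -0.22 (5 above 0, 11 below), beside -0.02. It was -0.25 between the replicate 1 arrays and -0.11 between the replicate 2 arrays. The genes of smallest p over the 4 groups were Lig3, the DNA ligase of mitochondria, Dguok, a kinase that supplies deoxynucleotides, and Tfb1m, a methyltransferase of mitochondrial ribosomal RNA. Lig3 read 5.69 and 6.60 with late estradiol, 6.90 and 6.64 with early estradiol, 6.42 and 6.64 after ovariectomy, and 7.09 and 6.70 after sham surgery, and late estradiol minus sham was -0.75 ± 0.34 (limma adjusted p = 0.997). Tfb1m read 3.28 and 6.01 with late estradiol, against 5.54 and 5.53 after ovariectomy, so the late arrays lay on either side of the ovariectomy arrays.

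**Figure D3:**
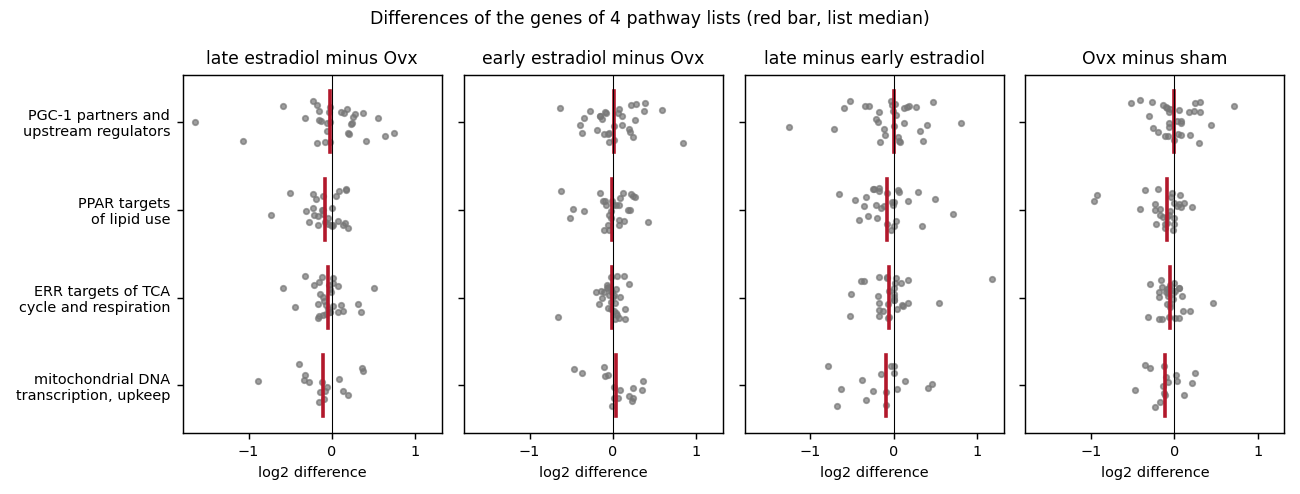
Log2 differences of group means (horizontal axis) of the genes of the 4 pathway lists, for late estradiol minus ovariectomy (Ovx), early estradiol minus ovariectomy, late minus early estradiol, and ovariectomy minus sham. Each grey point is 1 gene, spread vertically at random for legibility, and the red bar is the list median. All list medians shown lie between -0.11 and 0.04, and the farthest point to the left is Kat2a at -1.65 with late estradiol.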

How the data were processed

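RNA of hearts pooled by 3 was measured on 8 single-colour Affymetrix arrays, 2 per group. Each deposited value is a linear signal intensity; the submitters' processing notes name MAS5, without a version, scaling target or detection calls. Arrays were not on a common scale, so log2 values were quantile-normalized. Control probe sets (57) were dropped. Of the remaining 31042, the 18625 whose mean log2 signal reached the 40th percentile (3.69) entered the model (limma 3.58.1, R 4.3.3). It had group means over all 8 arrays, an intensity trend and 4 residual degrees of freedom, and p-values were adjusted by Benjamini-Hochberg within each comparison, two-sided. The number of arrays limits the precision.

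Gene names came from the platform annotation, in which 20826 probe sets had 1 symbol, 436 several and 9780 none. All 10 member genes were named by symbol; of the 20826, 20758 matched the RefSeq table of GRCr8 by Entrez number. Members and lists were chosen with earlier results of these data known. Every member probe set is named, and from each list the 3 genes of smallest p over the 4 groups and genes of smallest p in comparisons described. Within-group differences, replicate 2 over replicate 1, were correlated across probe sets between groups in all 6 pairs (r from 0.277 to 0.331). A fit with the replicate number as a block was among the alternatives.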

Additional observations from a re-analysis of the deposited data

How the results depend on the processing

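None of the 12 probe sets of the regulators was called in any of the 7 comparisons or the F test under any of the 16 alternatives run, so each count of calls stayed at 0. The smallest limma adjusted p of a regulator was 0.321, for late estradiol against sham without late estradiol replicate 2, a setting that called 87 other probe sets. That setting leaves 1 late estradiol array, the dimmest, which is assumed to vary like the arrays of the other groups. The fit with the replicate block called 0 regulators too, with a smallest adjusted p of 0.604 for late estradiol against ovariectomy, where Ppargc1a 1393743_at stood at 0.66 ± 0.22. Of 84 differences (12 probe sets, 7 comparisons), the sign changed in 20 without normalization and 11 with arrays scaled to the same median. It changed in 21 without the 2 dimmest arrays (late estradiol and ovariectomy replicate 1), from 6 to 18 with 1 array left out, and 0 with 32 added before the log. Changes of the filter, the intensity trend or the replicate block cannot move a difference of group means, so they could change no sign. The filter at the 60th percentile tested only 70 of the 84. Without normalization the median of all probe sets moved to between -0.62 and 0.18, and with median scaling to between -0.25 and 0.20.

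Among differences larger than their own standard error, 4 changed sign without normalization. Late minus early estradiol was -0.10 for Ppargc1a 1393743_at and -0.22 for Esrrg 1381445_at, against a median of -0.47 for all probe sets. Late estradiol minus sham was -0.26 and -0.08 for the same probe sets, against -0.62. Without ovariectomy replicate 2, 2 more changed sign for the average of the estradiol groups against ovariectomy. With 1 array left out, Ppargc1a 1395518_at ranged from -0.14 to 0.95 there, and Esrrg 1381445_at from -0.67 to 0.06. The stricter filter at the 60th percentile left out both Nrf1 probe sets. Averaging probe sets per gene moved list medians by at most 0.09. Apart from what the settings change by construction, the cause was not tested. Signals near the filter limit Ppara, Nrf1 and Kat2a.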
